A study of Harpegnathos saltator with 35 samples.

Results

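Neurons of the ant Harpegnathos saltator in primary culture that had been kept in 20-hydroxyecdysone (20E) and were then given juvenile hormone III (JH3) for 6 h were compared with cultures of the 20E baseline. The comparison took the 5 libraries of the first group and the 5 of the second, 10 of 35 libraries in the series, and every gene with an FPKM of at least 1 in 3 or more of the 35 libraries, 9873 of 14001 genes. FPKM counts the fragments sequenced from a gene, scaled to the length of that gene and to the size of the library.

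The cells came from dissociated central brains and were plated in a neuronal medium with insulin, progesterone and, at first, an extract of honeybee pupae. Cultures of both groups spent 5 days in 2 µM 20E. In the JH3 group the medium was then exchanged for one with 2 µM JH3, and RNA was taken 6 h later. In the 20E baseline the medium was exchanged for one with the solvent DMSO, and RNA was taken 30 min later, so 20E had been withdrawn for those 30 min there too. The JH3 group therefore differed from its baseline in 3 ways that cannot be told apart within this pair: JH3 was present, 20E had been gone for longer, and more time had passed since the medium change. Other groups used below were 20E cultures given JH3 for 30 min (3 libraries) or 24 h (3 libraries), the opposite switch of JH3 cultures to 2 µM 20E for 6 h (6 libraries), and the JH3 baseline (4 libraries, 5 days in 2 µM JH3, then DMSO for 30 min). Replicates were independent cultures. The labels do not say whether animals were pooled, and a culture holds whatever cells of the brain survived in it.

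Juvenile hormone is a sesquiterpenoid that enters cells and binds the receptor Met, a bHLH-PAS protein that acts with its partner Taiman; Kr-h1, a zinc-finger transcription factor, is its best known early target in insects. 20E binds a dimer of the nuclear receptors EcR and usp and starts a cascade of transcription factors such as E75, Hr3, Hr4 and ftz-f1. In social insects both hormones are tied to caste and reproduction, and in Harpegnathos juvenile hormone is linked to the worker state and ecdysteroids to the reproductive (gamergate) state.

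The libraries of the 2 groups held 10127547 to 22623724 reads after JH3 and 8606744 to 14891723 reads at the 20E baseline, recovered from the deposited values, and 8902 to 9187 genes reached an FPKM of 1. General neuron markers such as nSyb and brp were present in both groups: 10 of 10 reached an FPKM of 1 in at least 1 library of each group. The summed level of these markers ran from 495 to 731 FPKM after JH3 and from 417 to 1070 FPKM at the 20E baseline. Markers of other cell types were present at lower sums. Glial markers summed to 50.5 to 89.4 FPKM after JH3 and 60.4 to 80.1 FPKM at baseline, and muscle markers to 52.3 to 70.4 FPKM after JH3 and 50.4 to 87.8 FPKM at baseline. Fat body markers summed to 57.3 to 126 FPKM after JH3 and 83.4 to 135 FPKM at baseline. Hemocyte and extracellular matrix markers summed to 65.4 to 126 FPKM after JH3 and 84.1 to 123 FPKM at baseline, and photoreceptor markers to 37.8 to 60.7 FPKM after JH3 and 32.8 to 53.5 FPKM at baseline. These ranges overlapped for all 6 marker lists, and no marker in them was at 0 in a whole group. In each group 3 of 7 photoreceptor, 4 of 5 fat body and 9 of 10 muscle markers reached an FPKM of 1 in at least 1 library. All glial markers and all hemocyte and matrix markers reached it too. The lists differ in size, so their sums are not directly comparable. In bulk RNA, fewer cells of a type and less RNA per cell cannot be told apart. In all, 3 sequencing runs were used, called A, B and C. The JH3 group came from runs A (2 libraries) and C (3 libraries), and the 20E baseline from runs A (2), B (2) and C (1), so run was a term in the fit.

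After 6 h of JH3, 5 of 9873 genes had changed, and all 5 were higher than at the 20E baseline. They were Kr-h1, the early juvenile hormone target; Sidpn and cwo, both of which are bHLH-Orange transcriptional repressors in Drosophila; Pino, named after the Drosophila gene pinocchio; and LOC105192299, a protein-coding gene known only by number. Kr-h1 had a mean FPKM 7.19 times that of the baseline, LOC105192299 6.28 times, Sidpn 2.97 times, cwo 2.70 times and Pino 1.73 times. No gene was called lower. The test was limma on log2(FPKM + 1), fitted over all 35 libraries with terms for group and run, and a gene was called at a two-sided Benjamini-Hochberg adjusted p under 0.05; called genes were 0.0506% of those tested. At an unadjusted p under 0.05 there were 755 genes (7.65%), of which 433 were higher (4.39%) and 322 lower (3.26%). With limma's voom on the recovered reads 8 genes were called, all higher.

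**Figure D1:**
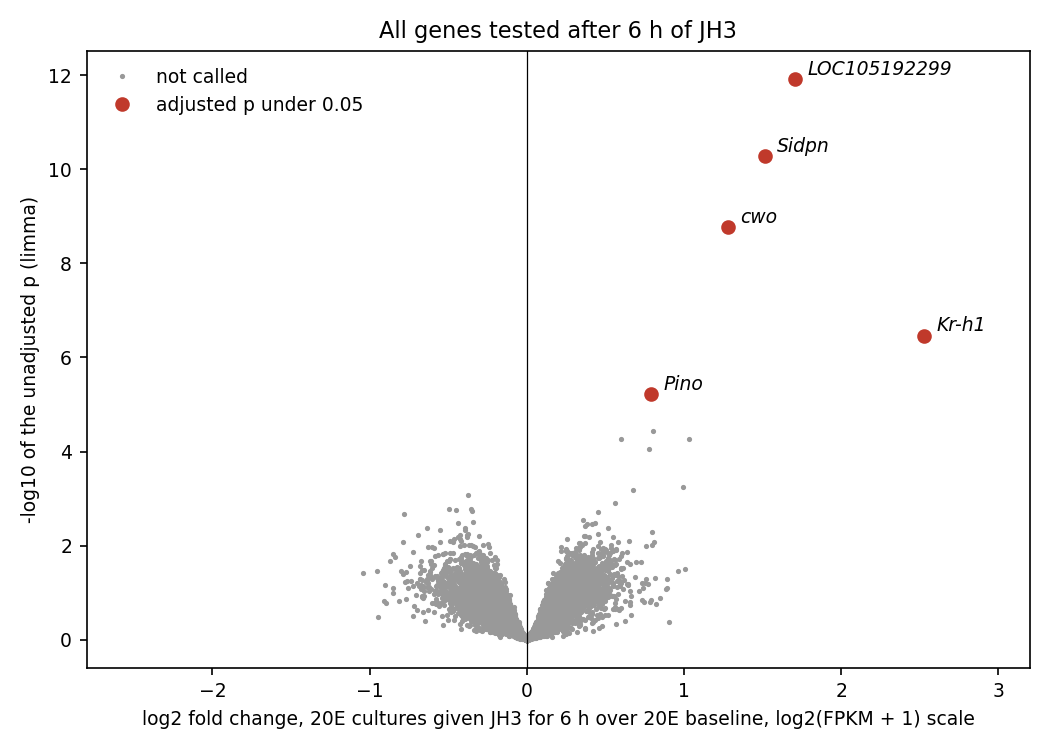
Each point is 1 of the 9873 genes tested: the log2 fold change of 20E cultures given JH3 for 6 h over the 20E baseline, on the log2(FPKM + 1) scale, against -log10 of the unadjusted p from limma. The 5 called genes (red) all lie to the right of 0, between 0.79 and 2.53, and stand above the cloud of genes that were not called (grey).

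Kr-h1 rose most. Its levels after JH3 were 49.4, 83.3, 26.7, 118 and 25.0 FPKM in replicates 1 to 5, against 6.06, 3.26, 8.78, 14.5 and 9.41 FPKM at the 20E baseline. All 5 JH3 libraries lay above all 5 baseline libraries, but the JH3 libraries themselves were widely spread. The spread was seen within run C, where the lowest and the highest JH3 library both fall, and not between runs alone. The log2 fold change was 2.53 (SE 0.38, 95% interval 1.74 to 3.32, adjusted p = 0.000845 by limma with Benjamini-Hochberg adjustment). Within run A, with 2 libraries each, it was 3.57 with an adjusted p of 0.0516, and within runs B and C, with 3 each, it was 1.75 with an adjusted p of 0.385, so the call rests on the libraries of all runs together. Runs B and C were not balanced: the 3 JH3 libraries were all of run C, against 2 baseline libraries of run B and 1 of run C. Both fits also held the other groups sequenced in those runs.

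Sidpn was even across replicates. It stood at 36.8, 38.9, 44.7, 49.9 and 34.9 FPKM after JH3 and at 13.6, 12.8, 11.5, 14.9 and 16.3 FPKM at the 20E baseline. The groups did not overlap, and the lowest JH3 library stood far above the highest baseline library. The log2 fold change was 1.51 (SE 0.15, interval 1.21 to 1.82, adjusted p = 2.56e-07, limma). Within runs B and C it was 1.55 (adjusted p = 0.00448) and within run A 1.45 (adjusted p = 0.0516).

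The third regulator, cwo (clockwork orange), is a repressor in the circadian clock of Drosophila. It stood at 15.6, 13.6, 15.7, 16.8 and 13.2 FPKM after JH3, against 4.25, 6.29, 5.21, 5.38 and 6.65 FPKM at the 20E baseline. Neither group overlapped the other, and replicates of each lay close together. The log2 fold change was 1.28 (SE 0.15, interval 0.98 to 1.58, adjusted p = 5.65e-06, limma). It was of the same size within run A (1.33, adjusted p = 0.137) and within runs B and C (1.22, adjusted p = 0.0659), where fewer libraries entered and the call was lost.

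LOC105192299 was low at the 20E baseline and had the smallest p of all genes. It had 6.86, 4.84, 2.73, 3.03 and 3.58 FPKM after JH3, from 175 to 702 reads per library, and 0.993, 0.743, 0.667, 0.580 and 0.365 FPKM at the 20E baseline, from 23 to 66 reads. The 2 JH3 libraries of run A were the highest. The log2 fold change was 1.71 (SE 0.14, interval 1.42 to 2.00, adjusted p = 1.18e-08, limma), a scale that understates the change of a gene this low. It was called within run A (1.86, adjusted p = 0.0256) and within runs B and C (1.54, adjusted p = 2.57e-05). It is the called gene that passed under all 26 alternative settings tried for this comparison.

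Pino was the most abundant of the 5 and changed least. It stood at 81.6, 75.1, 75.7, 78.2 and 67.8 FPKM after JH3, against 49.3, 46.4, 41.9, 34.8 and 45.7 FPKM at the 20E baseline. The groups were tight and did not overlap. The log2 fold change was 0.79 (SE 0.14, interval 0.50 to 1.08, adjusted p = 0.012, limma), the value closest to the threshold among called genes. The call was lost without replicate 4 of the 20E baseline, without replicate 1 of the JH3 group, and in each set of runs alone (0.70 in run A, 0.84 in runs B and C).

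**Figure D2:**
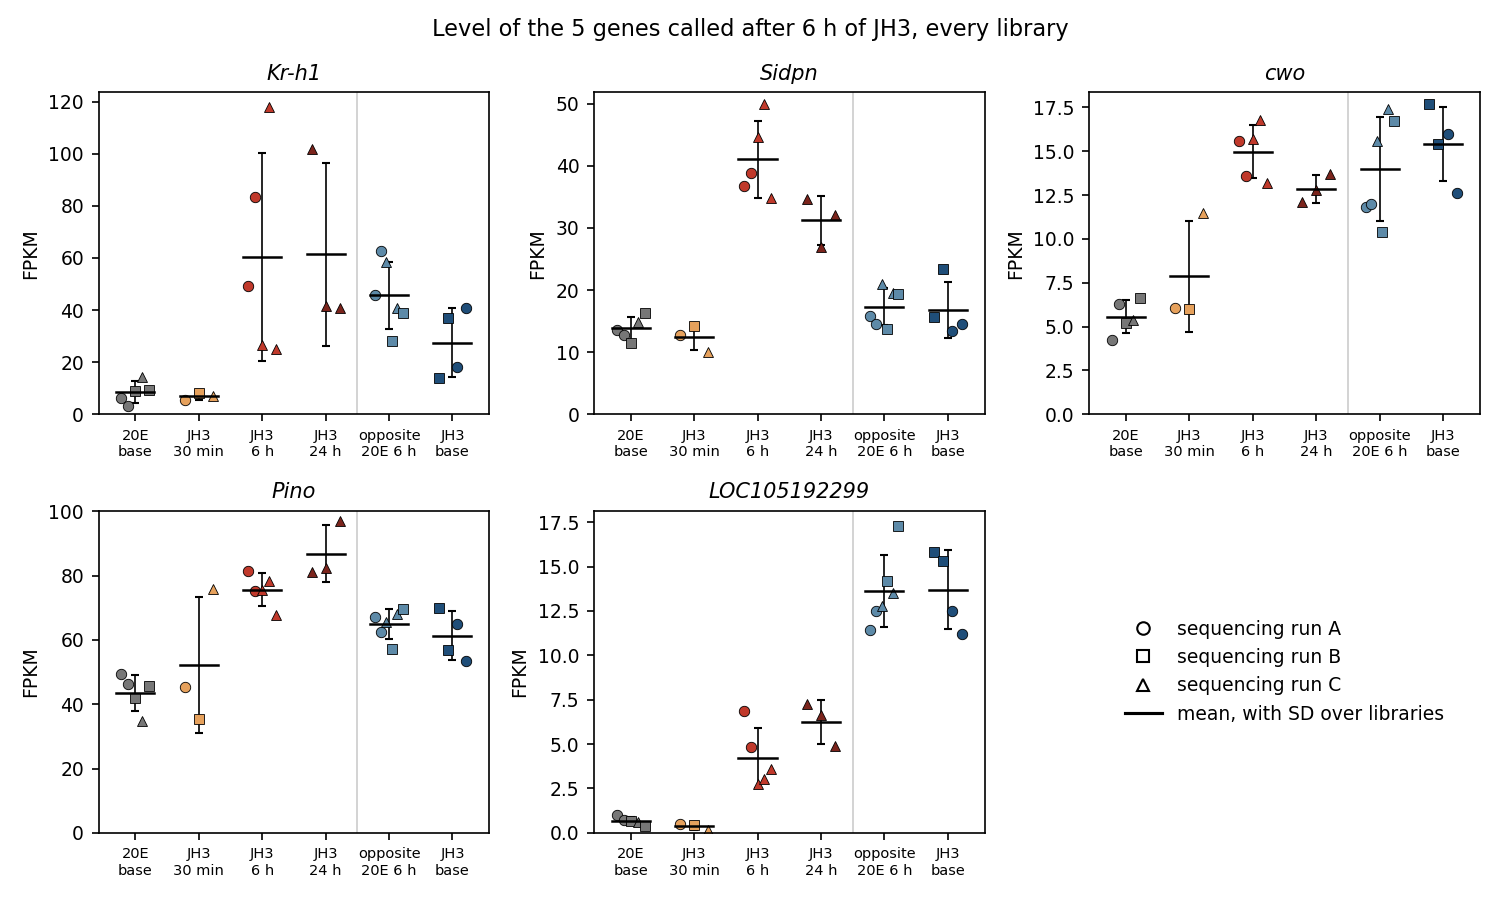
FPKM (linear axes from 0) of the 5 called genes in every library of 6 groups; from the left, the 20E baseline, then 20E cultures after 30 min, 6 h and 24 h of JH3, and on the right 2 groups of the other switch, JH3 cultures given 20E for 6 h and the JH3 baseline. Marker shapes are sequencing runs, bars are means with SD over libraries. In each panel the 5 libraries at 6 h of JH3 lie above all 5 of the 20E baseline.

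Just outside the threshold, named here after their values were seen, were 4 genes that also stood higher after JH3 without overlap: Delta, which carries the name of a Drosophila Notch ligand, with a log2 fold change of 0.80 and an adjusted p of 0.0598; LOC112589018 (1.04, adjusted p = 0.0683); Myc, a growth-promoting bHLH factor (0.60, adjusted p = 0.0683); and LOC105185764 (0.78, adjusted p = 0.0955). Delta had 31.3, 27.9, 23.5, 27.8 and 19.5 FPKM after JH3 and 16.5, 16.4, 10.8, 15 and 14.9 FPKM at the 20E baseline. Myc had 6.00, 4.40, 5.82, 4.77 and 7.21 FPKM after JH3 and 2.78, 3.55, 2.96, 3.94 and 2.99 FPKM at baseline. In both genes every JH3 library lay above every baseline library. Myc was also higher in the opposite switch (JH3 cultures given 20E over the JH3 baseline 1.06, adjusted p = 7.07e-06), and it stood at 3.74, 4.91 and 5.35 FPKM at 30 min of JH3 (6 h over 30 min 0.20, adjusted p = 0.968). With each library's slope of expression on gene length as a covariate, Delta reached 0.93 with an adjusted p of 0.00071. Without the 3 libraries of steep length slope described below, Delta was at 0.82 (adjusted p = 0.363, limma). Delta was called in 7 of 26 alternative settings. In the opposite switch Delta changed by 0.45 (unadjusted p = 0.00974, adjusted p = 0.579, limma) and LOC105185764 by -0.22. The difference between the switches was 0.35 for Delta (adjusted p = 0.734) and 1.00 for LOC105185764 (adjusted p = 0.0633), neither of them called. Glut4EF, known by the name of a Drosophila transcription factor gene, was also apart, with 18.4, 19.4, 12.6, 23.3 and 10 FPKM after JH3 and 7.63, 7.76, 4.47, 9.19 and 7.82 FPKM at the 20E baseline. Its log2 fold change of 0.99 had an adjusted p of 0.522, and with the length slope it was 1.34 with an adjusted p of 1.34e-08. Without the same 3 libraries Glut4EF was at 1.06 (adjusted p = 0.978, limma). Glut4EF was called in 3 of 26 alternative settings. In all, 20 genes (0.203% of those tested) had all 5 JH3 libraries above all 5 of the baseline and 10 genes (0.101%) had all 5 below. The 10 lower genes had log2 fold changes between -0.62 and -0.11, and the smallest adjusted p among all genes with a negative change was 0.522.

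The 2 called members of the juvenile hormone list were Kr-h1 and Sidpn, out of 6 tested members (0.0506% of all genes were called). The other 4 were not called, among them Chd64, which binds a juvenile hormone response element in Drosophila, at 0.31; Fkbp39, its binding partner there, at 0.07; and dpn, the Drosophila neuroblast repressor deadpan that Sidpn resembles, at -0.16. The median of the list was 0.19, against -0.005 over all genes tested. The list was chosen with earlier results of these data known, so these counts are not independent evidence. dpn was near the detection limit, at 0.782 ± 0.389 FPKM after JH3 and 1.03 ± 0.695 FPKM at the 20E baseline (SD, n = 5 each). Met and Taiman were not among the gene symbols used here.

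Of 4 clock genes tested only cwo was called, where 0.0506% of all genes were called. Clk, the bHLH activator of the clock, averaged 9.09 ± 1.67 FPKM after JH3 and 11.8 ± 2.87 FPKM at the 20E baseline, with a log2 fold change of -0.40 (unadjusted p = 0.0431, adjusted p = 0.522). per, the period gene, averaged 0.825 ± 0.280 FPKM after JH3 and 0.608 ± 0.159 FPKM at the 20E baseline, with overlapping groups (0.20, adjusted p = 0.645). timeout was at -0.04. The hour of day at which cultures were lysed is not in the labels, and RNA of the 2 groups was taken at different times after the medium change.

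None of the 14 tested ecdysone response genes was called by limma in either direction after 6 h of JH3 without 20E, and none had an unadjusted p under 0.05. Over all genes tested 0.0506% were called and 7.65% had an unadjusted p under 0.05, so these counts do not set the list apart. The median log2 fold change of the 14 genes was -0.11, from -0.61 in E23 to 0.32 in usp, and 6 of the 14 were above 0. E75, a nuclear receptor induced directly by 20E in Drosophila, stood at 76.3, 43.3, 124, 81.5 and 106 FPKM after JH3 and at 94.3, 85.1, 61.9, 68.0 and 86.2 FPKM at the 20E baseline. The groups overlapped, with JH3 libraries on both sides of the baseline range, and the log2 fold change of 0.06 had a 95% interval of -0.40 to 0.51. Hr3, a receptor of the middle of the cascade, had 65.1, 61.2, 69.8, 77.5 and 62.8 FPKM after JH3 and 71.3, 72.8, 40.4, 113 and 61.2 FPKM at baseline. Its JH3 libraries all lay inside the baseline range (-0.11, interval -0.52 to 0.30).

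Hr4 and E23 were less tightly bounded. Hr4 averaged 67.5 ± 15.6 FPKM after JH3 and 81.2 ± 36.8 FPKM at baseline (-0.23, interval -1.09 to 0.64). E23, an ABC transporter gene induced by ecdysone in Drosophila, had 31.2, 40.8, 20.3, 52.8 and 12.6 FPKM after JH3 and 58.1, 47.9, 16.2, 61.9 and 35.8 FPKM at baseline (-0.61, interval -1.30 to 0.08, adjusted p = 0.522). The spread between cultures was wide in both genes, so that only large differences were detectable. The receptor genes Ecr (-0.15, interval -0.43 to 0.14) and usp (0.32, interval -0.19 to 0.83), the orphan receptors Hr39 (-0.27), Hr38 (0.08) and ftz-f1 (0.21), and the transcription factor genes Eip74EF (0.28), Eip93F (-0.13) and br (-0.35) were not called either, with adjusted p of 0.522 to 0.958. Several of these near-zero values turn sign in other settings, as listed in the closing section.

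**Figure D3:**
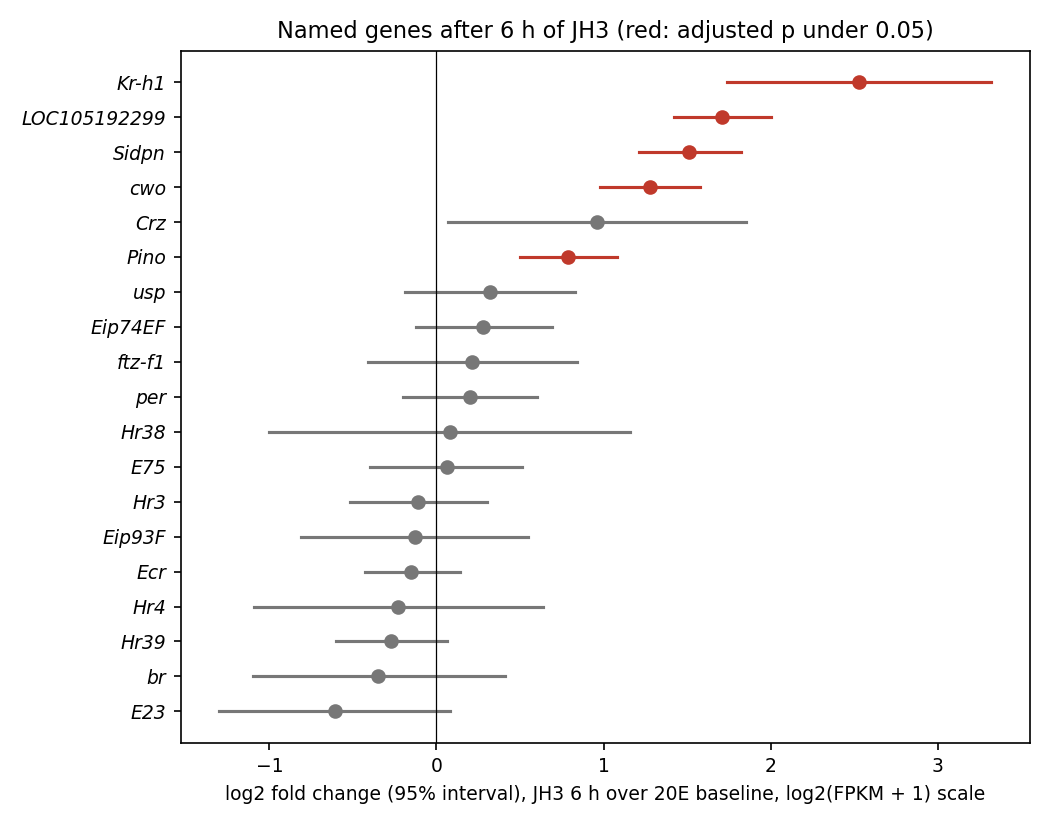
Log2 fold change with 95% interval, 20E cultures given JH3 for 6 h over the 20E baseline, of the 5 called genes (red) and the other hormone genes named by rule (grey). The intervals of the 5 called genes exclude 0; among the others only that of Crz does, and it was not called after adjustment.

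The neuropeptide gene Crz (corazonin) had 2.36, 0.129, 3.94, 0 and 5.84 FPKM after JH3 and 0.779, 0.530, 0.588, 0 and 0.0934 FPKM at the 20E baseline. In 3 JH3 libraries Crz was above the whole baseline range, in the other 2 it was not, and 1 library of each group was at 0 (log2 fold change 0.96, unadjusted p = 0.0346, adjusted p = 0.522). None of the 10 neuropeptide genes tested was called, where 0.0506% of all genes were called. spab averaged 117 ± 39.7 FPKM after JH3 and 62.4 ± 8.32 FPKM at baseline, without overlap (0.82, unadjusted p = 0.0492, adjusted p = 0.522).

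The same switch was also sampled after 30 min and 24 h of JH3. At 30 min of JH3, Kr-h1 stood at 5.61, 8.25 and 7.10 FPKM and Sidpn at 12.8, 14.2 and 10.1 FPKM, within or near the baseline range. LOC105192299 stood at 0.520, 0.451 and 0.149 FPKM at 30 min. cwo had 6.08, 6.00 and 11.5 FPKM and Pino 45.4, 35.3 and 75.8 FPKM at 30 min, so that in both genes replicate 3 was high and the other 2 were near the baseline.

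Against the 30 min cultures, which were also given JH3 and share no library with the 20E baseline, 9 genes were higher at 6 h and none was lower (0.0912% of genes tested). The 6 h libraries are the same as in the comparison with the baseline. Kr-h1 was higher by 2.67 on the log2 scale (adjusted p = 0.00355, limma), LOC105192299 by 1.96 (adjusted p = 8.23e-09), Sidpn by 1.68 (adjusted p = 3.52e-07) and cwo by 0.90 (adjusted p = 0.014). The call of cwo was lost without replicate 2 of the 30 min group (0.74, adjusted p = 0.22) and without replicate 1 of the 6 h group (0.85, adjusted p = 0.0573). Pino was not called (0.60, adjusted p = 0.246), but was without replicate 3 of the 30 min group (0.98, adjusted p = 0.000332). The other 5 called genes were Delta, LOC105185764, LOC105182284, LOC105182486 and nAChRa7, a nicotinic acetylcholine receptor subunit. Of 22 alternative settings, Delta was called in 20, LOC105182284 in 19, LOC105185764 in 17, nAChRa7 in 16 and LOC105182486 in 11, and all 5 lost their calls without replicate 3 of the 30 min group. Delta was at 15.1, 11.4 and 9.63 FPKM at 30 min, below all 5 libraries at 6 h (log2 fold change 1.06, adjusted p = 0.0084, limma). nAChRa7 was at 39.8 ± 5.81 FPKM at 6 h and 22.3 ± 4.23 FPKM at 30 min (0.80, adjusted p = 0.0228), while against the 20E baseline of 34.5 ± 10.8 FPKM its change was 0.21 (adjusted p = 0.532). Against the 20E baseline LOC105182284 changed by 0.39 and LOC105182486 by 0.47 at 6 h (adjusted p = 0.522 for each, limma). The 30 min group was itself below that baseline by -0.42 in LOC105182284, -0.73 in LOC105182486 and -0.59 in nAChRa7, none of them called. The count of 9 genes against 30 min rose to 148 when replicate 1 of the 30 min group was left out, 87 higher and 61 lower.

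At 24 h the 5 genes were still above the 20E baseline. Kr-h1 had 102, 41.5 and 40.8 FPKM at 24 h, Sidpn 34.6, 26.9 and 32.1, cwo 12.1, 12.8 and 13.7, Pino 81.2, 82.4 and 97.0, and LOC105192299 7.25, 6.62 and 4.88 FPKM. Against the baseline at 24 h, where 0.243% of genes were called (0.203% higher and 0.0405% lower), the log2 fold changes were 2.62 for Kr-h1, 1.04 for Sidpn, 1.01 for cwo, 1.01 for Pino and 2.32 for LOC105192299, each with an adjusted p under 0.05 (from 7.00e-10 to 0.00397, limma). Without the 3 libraries of steep length slope described below, the 24 h calls were lost for Sidpn (0.90, adjusted p = 0.0724), cwo (0.89, adjusted p = 0.145) and Pino (0.83, adjusted p = 0.145), and with the compared groups alone for Kr-h1 (2.72, adjusted p = 0.0659) and Pino (0.98, adjusted p = 0.0868). Both comparisons use the same baseline libraries. Between 24 h and 6 h none of the 5 was called: the differences were 0.61 for LOC105192299 (adjusted p = 0.198), 0.22 for Pino, 0.09 for Kr-h1, -0.27 for cwo and -0.48 for Sidpn (adjusted p = 0.43). The 24 h libraries were all from run C.

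Only 2 genes were called between 24 h and 6 h, both higher at 24 h (0.0203%), and neither is among the 5. LOC105192351 averaged 13.4 ± 1.67 FPKM at 24 h (n = 3) and 6.00 ± 0.817 FPKM at 6 h (n = 5), a log2 fold change of 0.99 (adjusted p = 0.00577, limma). LOC112590514 averaged 5.14 ± 2.80 FPKM at 24 h and 0.444 ± 0.354 FPKM at 6 h (2.06, adjusted p = 0.00577). The number depended on single libraries at 24 h: it was 32 without replicate 1 and 1 without replicate 2 or without replicate 3.

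The 6 h libraries were then set against cultures that had been in JH3 for 5 days. In that comparison with the JH3 baseline 12.9% of genes were called (5.62% higher and 7.28% lower), and the 5 genes took different places. Sidpn was above the JH3 baseline as well, at 15.6, 23.4, 13.4 and 14.6 FPKM there (log2 fold change of 6 h of JH3 over the JH3 baseline 1.26, adjusted p = 3.45e-06, limma), although the 2 baselines did not differ for it beyond the threshold (JH3 over 20E baseline 0.26, adjusted p = 0.244, where 21.1% of genes were called, 11.4% higher and 9.7% lower). With the length slope as a covariate the baselines did differ for Sidpn (0.32, adjusted p = 0.0439). cwo was at 17.7, 15.4, 16.0 and 12.6 FPKM in the JH3 baseline and did not differ from it (-0.07, adjusted p = 0.843). LOC105192299 was at 15.8, 15.3, 12.5 and 11.2 FPKM there, above all 6 h libraries (-1.38, adjusted p = 3.32e-07). Kr-h1 (0.91, adjusted p = 0.165) and Pino (0.31, adjusted p = 0.207) were not called. With the length slope as a covariate Kr-h1 was at 1.10 (adjusted p = 0.0185) and with library weights at 1.45 (adjusted p = 0.0053), and Pino was at 0.32 (adjusted p = 0.0429) with library weights. The JH3 baseline had itself been in DMSO without JH3 for 30 min.

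Of the 12 ecdysone response genes named above, 5 were higher than in the JH3 baseline and 3 were lower. Hr4 averaged 67.5 ± 15.6 FPKM at 6 h of JH3 (n = 5) and 5.30 ± 2.58 FPKM in the 4 libraries of that baseline, which gave a log2 fold change of 3.47 (adjusted p = 5.79e-06, limma). E23 (2.21), Eip93F (1.41) and Hr3 (1.35) were also higher than in the JH3 baseline, with adjusted p of 9.95e-05, 0.00776 and 8.12e-05. usp averaged 11.6 ± 2.39 FPKM at 6 h of JH3 and 47.7 ± 11.0 FPKM in the JH3 baseline (-2.02, adjusted p = 6.38e-06), and ftz-f1 (-2.13, adjusted p = 4.75e-05) and Ecr (-0.60, adjusted p = 0.00728) were lower too, Ecr not with the compared groups alone (adjusted p = 0.0606). Not called were Eip74EF (0.39, adjusted p = 0.276), br (-0.27, adjusted p = 0.742), Hr38 (-1.40, adjusted p = 0.114) and Hr39, whose 95% interval was -0.36 to 0.35. per averaged 0.825 ± 0.280 FPKM at 6 h of JH3 and 6.65 ± 2.28 FPKM in the JH3 baseline (-1.98, adjusted p = 1.10e-07). E75 was higher by 0.86 (adjusted p = 0.0157), a call lost without replicate 4 of the JH3 baseline (0.69, adjusted p = 0.0662).

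**Figure D4:**
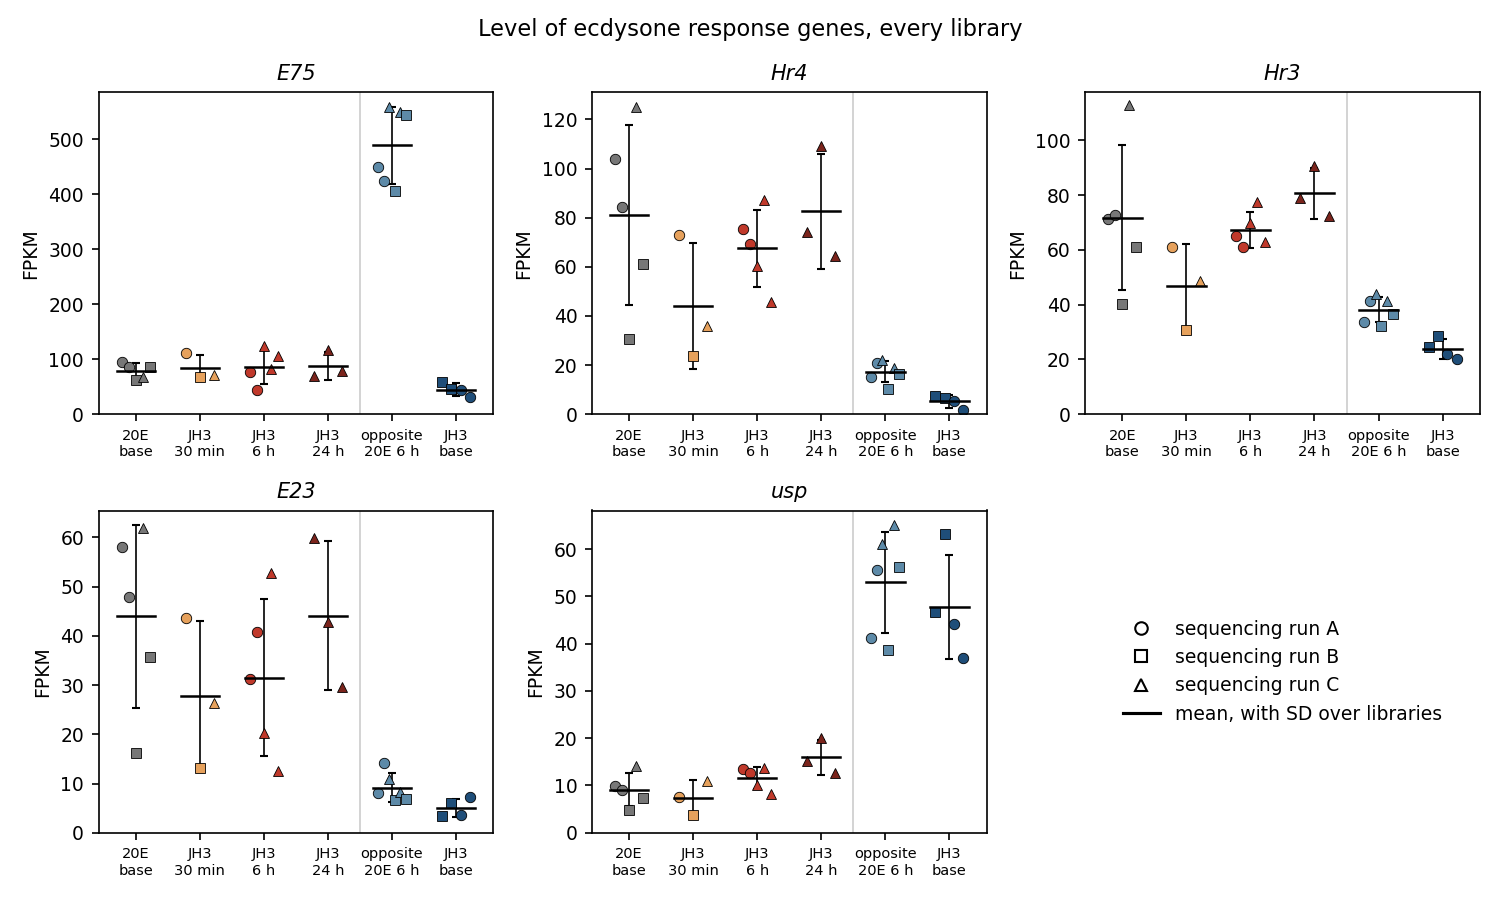
FPKM (linear axes from 0) of E75, Hr4, Hr3, E23 and usp in every library of the same 6 groups, with means and SD; marker shapes are sequencing runs. The 5 libraries at 6 h of JH3 overlap those of the 20E baseline in all 5 panels. In the opposite switch E75 stands between 406 and 559 FPKM.

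The opposite switch, JH3 cultures given 20E for 6 h, used none of the same libraries; against its own baseline it had 0.506% of genes called (0.476% higher and 0.0304% lower). The difference between the 2 switches, each taken against its own baseline, was tested directly, and 23 genes were called (0.233%): 3 with a more positive change after JH3 (0.0304%) and 20 with a more positive change after 20E (0.203%). The 3 were LOC105192299 (difference 1.63, adjusted p = 2.10e-05, limma), Sidpn (1.48, adjusted p = 0.000172) and cwo (1.46, adjusted p = 0.000172). In the opposite switch itself they changed by 0.08, 0.03 and -0.18. The difference includes all libraries of the comparison with the 20E baseline, so these 3 calls are not separate evidence of a rise after JH3. Sidpn stood at 15.8, 14.6, 20.9, 13.8, 19.6 and 19.3 FPKM after 20E and at 16.7 ± 4.51 FPKM in the JH3 baseline. cwo averaged 14.0 ± 2.95 FPKM after 20E and 15.4 ± 2.10 FPKM in the JH3 baseline, and LOC105192299 averaged 13.6 ± 2.03 FPKM after 20E and 13.7 ± 2.21 FPKM in the JH3 baseline. At 6 h these 3 genes thus had overlapping levels with and without 20E in cultures that came from JH3. In JH3 cultures given 20E for 24 h (n = 4), Sidpn averaged 27.4 ± 3.3 FPKM, higher than its mean in the JH3 baseline. cwo averaged 15.5 ± 2.13 FPKM and LOC105192299 15.7 ± 2.32 FPKM in those 24 h cultures. These 24 h levels were not tested against the JH3 baseline. For Kr-h1 the difference was 1.77 and was not called (adjusted p = 0.368), though it was 2.27 with the length slope (adjusted p = 0.00907) and 2.05 with library weights (adjusted p = 0.0186). Kr-h1 averaged 45.8 ± 12.9 FPKM after 6 h of 20E and 27.5 ± 13.3 FPKM in the JH3 baseline (0.76, unadjusted p = 0.0572, limma, not called). After 24 h of 20E its mean was 49.0 ± 8.33 FPKM, so Kr-h1 also stood higher on average after the switch to 20E. For Pino the difference between the switches was 0.69 (adjusted p = 0.273), and 0.72 with library weights (adjusted p = 0.00603). Pino averaged 47.1 ± 6.46 FPKM after 24 h of 20E and 61.3 ± 7.51 FPKM in the JH3 baseline. These 24 h levels of Kr-h1 and Pino were not tested against that baseline either.

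Among the 20 genes on the other side were E75 and Hr39. E75 averaged 488 ± 69.7 FPKM in JH3 cultures given 20E (n = 6) and 45.0 ± 11.8 FPKM in the JH3 baseline (n = 4), while the removal of 20E and addition of JH3 left it at 86.2 ± 30.7 FPKM, against 79.1 ± 13.6 FPKM at the 20E baseline (difference -3.36, adjusted p = 9.88e-08, limma). Hr39 averaged 10.8 ± 2.06 FPKM after 20E and 5.33 ± 0.705 FPKM in the JH3 baseline, and 5.79 ± 1.57 FPKM after JH3, against 6.72 ± 1.29 FPKM at the 20E baseline (difference -1.13, adjusted p = 0.0138).

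Outside the hormone and clock lists no member of the other lists was called after 6 h of JH3, and 4 lists lay mostly to a side of 0 without a called member. All 58 cytosolic ribosomal protein genes were above 0 (median log2 fold change 0.46), from 0.26 in RpL3 to 0.69 in RpL39, and 3 had an unadjusted p under 0.05. Of 49 respiratory chain genes encoded in the nucleus 47 were above 0 (median 0.36), from -0.09 in ND-30 to 0.80 in UQCR-6.4, and 16 had an unadjusted p under 0.05. Over all genes tested, 4.39% were higher at that level. Of 22 neuronal adhesion and axon guidance genes 20 were below 0 (median -0.22), from -0.54 in fra, the netrin receptor, to 0.23 in side. The median over all genes tested was -0.005. In hemocyte and extracellular matrix markers 9 of 10 were below 0 (median -0.30).

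Gene length moved with these shifts. The counted length had a median of 1920 bases for ribosomal protein genes, 2065 for respiratory chain genes and 14158 for adhesion genes, against 4111 for all genes tested. Libraries differed in how their log2 levels, taken as deviations from each gene's mean, sloped with log2 gene length: the slope was -0.0191, 0.0212, -0.0861, 0.0681 and -0.183 in replicates 1 to 5 after JH3 and 0.0019, 0.0290, -0.136, 0.134 and 0.0111 at the 20E baseline. Replicate 5 after JH3, with the steepest negative slope, had its ribosomal protein genes 1.03 above their mean over the 10 libraries, and replicate 4 of the 20E baseline, with the steepest positive slope, had them 1.12 below it. With the slope as a covariate the medians were 0.10 for ribosomal proteins, 0.14 for the respiratory chain, 0.01 for adhesion genes and -0.10 for hemocyte and matrix markers. Without the 3 libraries whose slope exceeded 0.1 in size they were 0.10, 0.13, -0.13 and -0.16. Within run A they were 0.13, 0.12, -0.04 and -0.07, and within runs B and C 0.75, 0.56, -0.38 and -0.47.

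**Figure D5:**
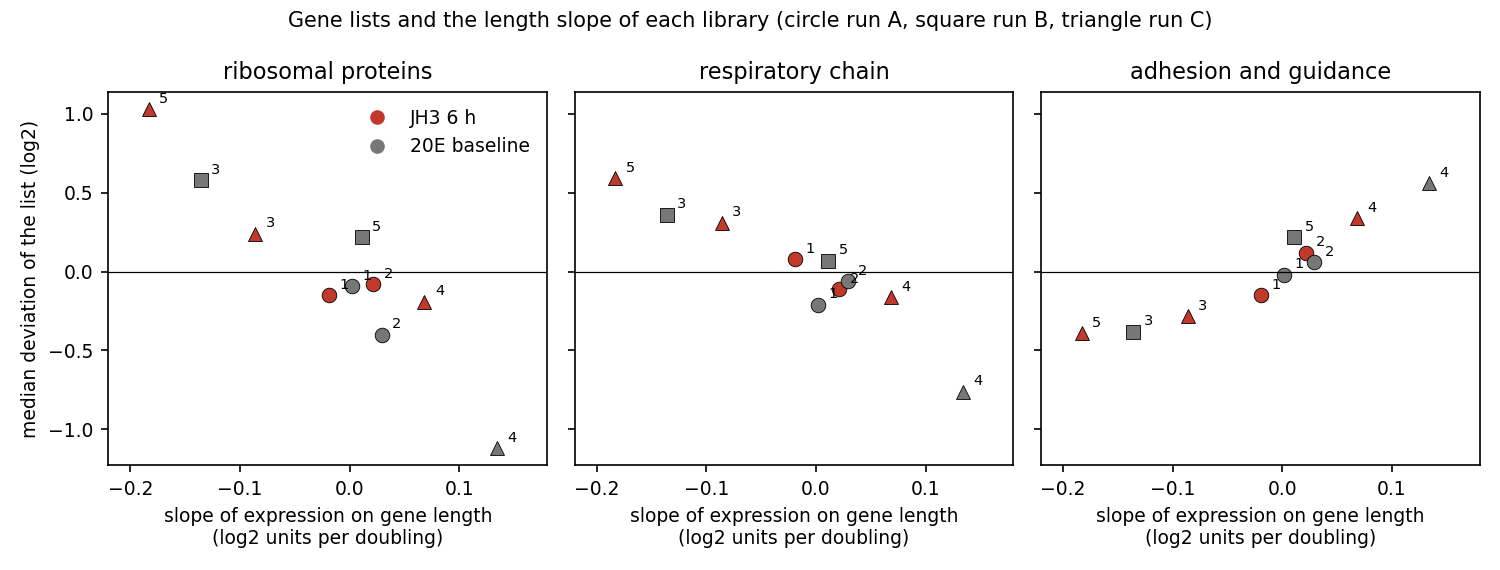
Median deviation of 3 gene lists from their mean over the 10 libraries (log2) against the slope of expression on gene length of each library (log2 units per doubling of length); numbers are replicates, red is 6 h of JH3 and grey the 20E baseline. Ribosomal protein and respiratory chain medians are highest in JH3 replicate 5 and lowest in baseline replicate 4, and adhesion genes run the other way; genes of each list also enter the slope.

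With the slope as a covariate the 5 called genes kept their calls. Their log2 fold changes were 2.90 for Kr-h1, 1.75 for LOC105192299, 1.65 for Sidpn, 1.36 for cwo and 0.81 for Pino (adjusted p of 9.82e-10 to 0.00581, limma), among 12 called genes in that fit. Without the 3 libraries 4 of the 5 were called, with values of 3.13, 1.75, 1.48 and 1.25, and Pino was at 0.69 (adjusted p = 0.42).

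The other lists lay close to the median of all genes or were spread around it, and none had a called member. Of general neuron markers 3 of 10 were above 0 (median -0.16), of transmitter genes 3 of 11 (median -0.03), of mushroom body genes 3 of 9 (median -0.05), and of immediate early genes 2 of 6 (median -0.19). Insulin and growth genes split evenly, 5 of 10 above 0 (median 0.00), with Myc highest at 0.60 and chico, the insulin receptor substrate, lowest at -0.37. Heat shock and unfolded protein genes were at 8 of 12 above 0 (median 0.10), cell cycle genes at 5 of 12 (median -0.02), immune genes at 3 of 7 (median -0.05), ecdysteroid synthesis genes at 1 of 4 (median -0.05), detoxification genes at 2 of 3 (median 0.15), and the apoptosis gene Dronc at -0.08. Among glial markers 2 of 6 were above 0 (median -0.16), with Gs2, a glutamine synthetase, at 0.52 (adjusted p = 0.522) and axo at -0.62 (adjusted p = 0.522). Muscle markers were at 6 of 9 (median 0.09), photoreceptor markers at 3 of 4 (median 0.08) and fat body markers at 2 of 4 (median -0.14).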

How the data were processed

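The authors deposited FPKM values for 14001 genes in 35 libraries of polyadenylated RNA, made with a strand-specific dUTP protocol per the labels. The submitters' processing notes name bcl2fastq, STAR, DESeq2 and featureCounts as tools. The genome build, like the annotation, was not given in the sources used here. Gene names came from a RefSeq table (Hsal_v8.6), with 13989 identifiers matched and 4117 with a symbol. Within a gene the FPKM values are whole multiples of a step, from which whole reads and gene lengths were recovered for 12909 genes (100.0% of nonzero values within 0.003 of a whole number); the steps followed median-ratio size factors to within 0.241%, so the deposited FPKM were scaled by these.

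limma 3.58.1 in R 4.3.3 was fitted to log2(FPKM + 1) with group and sequencing run, over all 35 libraries, with a trended, robust prior and Benjamini-Hochberg adjustment over 9873 genes. Fold changes are adjusted for run, understate low genes, and need not equal ratios of mean FPKM. Runs were read from flow cell codes in the sample descriptions. The fit was also tested on simulated data, whose spread was taken from the fit of these libraries. No pair of replicates was as close as sampling alone would make it (chi-square of 17.3 to 177 per gene).

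The groups, genes and 23 lists were chosen with earlier results of these data known, so no list is independent evidence. Named genes were the largest called rises and falls with a mean FPKM of at least 2 (up to 12 each way with a symbol and 4 known by number), up to 3 called members of each list, and 20 hormone genes whatever they did, of which 18 were found. A list is described by counts and its median only. Genes named outside the rule are said to be so. The two-sided p-values weigh a run-adjusted group difference against the spread between cultures within groups, estimated over all 35 libraries. The values of 1 member of the juvenile hormone list are not reported here.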

Additional observations from a re-analysis of the deposited data

Results flagged for a closer look

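The change after 6 h differed between the switch to JH3 and the opposite switch to 20E, by a direct test of the difference (limma, Benjamini-Hochberg adjustment), for 5 of the named genes. That test includes the libraries of the comparison with the 20E baseline, so it is not separate evidence for genes called there. The difference was 1.63 for LOC105192299 (adjusted p = 2.10e-05), 1.48 for Sidpn (adjusted p = 0.000172) and 1.46 for cwo (adjusted p = 0.000172). Each of these genes was higher after JH3 against its baseline, with overlapping levels after 6 h of 20E and in the JH3 baseline. The difference was -1.13 for Hr39 (adjusted p = 0.0138) and -3.36 for E75 (adjusted p = 9.88e-08), both higher after 20E against the JH3 baseline and not called after JH3. No library stood apart from its group in the 48 groups of values tested for a single outlier, where chance would flag about 1 in 20.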

How the results depend on the processing

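All genes called in the comparison with the 20E baseline were higher under each alternative. Their number was 5 as reported, 4 to 6 without any 1 library, 4 without the 3 libraries of steep length slope (an alternative chosen after seeing the data), 9 with library weights, 12 with the length slope as a covariate, 8 with voom, 3 when only the compared groups were fitted, 1 in run A alone and 2 in runs B and C alone, where fewer libraries entered. Against 30 min the number was 9 as reported, 67 with the length slope, 2 in the compared groups alone, and 6 to 148 without any 1 library. Between 24 h and 6 h it was 2 as reported, 1 with a pseudocount of 0.1, 1 with a filter at FPKM 5, 8 with no run term, 5 with library weights, 0 in the compared groups alone, and 1 to 32 without any 1 library. For the difference between the switches it was 23 as reported, 126 with library weights, 36 with the length slope, 15 in the compared groups alone, and 15 to 36 without any 1 library (15 without JH3 baseline replicate 3 and 36 without replicate 4). The cause of these shifts was not tested.

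Of the 26 alternatives of the comparison with the 20E baseline, LOC105192299 was called in 26, Sidpn in 25, cwo in 24, Kr-h1 in 23 and Pino in 20. Values that changed sign were uncalled as reported. Kr-h1 between 24 h and 6 h was -0.06 with quantile normalization, -0.18 with library weights, -0.37 with the length slope, -0.04 with voom, -0.14 without the 3 libraries and -0.34 to 0.44 without any 1 library. After JH3, with the length slope, Eip93F was 0.16, Ecr 0.01, br 0.06, Hr4 0.05 and Hr3 0.08. With library weights Ecr was 0.01 and E75 -0.19, and with quantile normalization E75 was -0.05. Within run A E75 was -0.63 and br 0.40, and within runs B and C Hr38 was -0.31 and ftz-f1 -0.10. Without the 3 libraries E75 was -0.24 and br 0.07. Without any 1 library the ranges were -0.37 to 0.15 for Eip93F, -0.08 to 0.35 for Hr38, -0.22 to 0.01 for Ecr, -0.07 to 0.31 for E75, -0.62 to 0.04 for br, -0.45 to 0.06 for Hr4 and -0.25 to 0.12 for Hr3.

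Replicate numbers were not stated to pair the samples. Correlations of same-numbered deviations were -0.246, -0.326, 0.353, 0.434 and -0.0808. Those of differently numbered libraries ran from -0.593 to 0.652, so these values cannot decide whether samples were paired. With the replicate block 6 genes were called against the 20E baseline, 7 against 30 min, 2 between 24 h and 6 h, and 21 for the difference between the switches.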
